A study of Mus musculus with 8 samples.

Results

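The anoctamins (Ano1 to Ano10, also called TMEM16 proteins) are membrane proteins activated by calcium ions. The family was chosen by the measured difference of Ano1 between KPH2 and KP tumours, and its members were then taken by gene symbol, so the Ano1 difference is given as a description with no test while the other members carry the test. All 10 genes had a row among the 26667 genes counted, and 5 of them (Ano1, Ano5, Ano6, Ano8 and Ano10) had enough reads to be tested. Ano2, Ano3, Ano4, Ano7 and Ano9 were too low and are given by their counts.

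Anoctamins work in different ways although they share a fold. Ano1 and its closest relative Ano2 are chloride channels of the cell surface that open when calcium rises in the cell, and Ano1 is known from secretory epithelium, smooth muscle, the pacemaker cells of the gut and, under the name DOG1, from gastrointestinal stromal tumours. Ano6 moves phospholipids across the plasma membrane and so exposes phosphatidylserine, Ano5 is a protein of skeletal muscle and bone whose loss causes muscular dystrophy, and Ano8 and Ano10 act mainly at the endoplasmic reticulum, with Ano8 holding it close to the plasma membrane.

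RNA was measured in undifferentiated pleomorphic sarcomas (UPS) that arose in the hind limb muscle of mice of a mixed 129/C57BL/6 background after injection of an adenovirus carrying Cre recombinase (Ad-Cre). Mice of both sexes were at least 8 weeks old at injection, and tumours were taken 7 weeks later or once they had grown to the permitted limit. KP tumours (KP 5 to KP 8, labelled wild type) came from KP mice, whose alleles include Trp53 fl/fl, and KPH2 tumours (KPH2 1 to KPH2 4, labelled Epas1 -/-) came from mice that carried the KP alleles and in addition Epas1 fl/fl, the gene of the hypoxia factor HIF-2α. Both groups thus received Ad-Cre and share the KP alleles. Ad-Cre recombines whichever cells it enters near the injection, muscle included, and host cells that it did not enter keep their Epas1, so a library of a fixed, paraffin-embedded section can hold RNA of cells with and without Epas1. In such bulk samples a change in the number of cells of a type and a change in RNA per cell cannot be told apart.

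Total counts were 6463221 to 13155510 per tumour, with 1 library per tumour. Epas1 was at 59.1 to 86.7 counts per 1e+06 counts of the scaled library (CPM) in KP tumours and at 32.6 to 53.3 CPM in KPH2 tumours. The study's methods leave out 1 knockout tumour as a technical outlier without naming it. KPH2 1 was taken to be that tumour, because it is missing from the deposited table of 7 tumours, and is shown apart, so the comparison rests on KP 5 to 8 against KPH2 2 to 4. Mesenchymal markers of the labelled tumour type (Vim, Col1a1 and 5 others) summed to 5150 to 17400 CPM over the 8 tumours. Skeletal muscle markers differed more, with 25 genes summing to 1870 to 3400 CPM in KP tumours, 4370 to 19700 CPM in KPH2 2 to 4 and 1530 CPM in KPH2 1.

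The members are scattered over the genome. In GRCm38.p6 Ano1 (Entrez Gene 101772) lies on the minus strand of chromosome 7 from 144588549 to 144752026, and Ano5 (Entrez Gene 233246) lies on the plus strand of the same chromosome from 51510007 to 51598707. Ano8 (Entrez Gene 382014) lies on chromosome 8 from 71476016 to 71486092 on the minus strand. Ano6 (Entrez Gene 105722) lies on the plus strand of chromosome 15 from 95790843 to 95975472, and Ano10 (Entrez Gene 102566) on the minus strand of chromosome 9 from 122175874 to 122294444. Ano1 and Ano2 shared 59.6% of aligned residues in their translated longest reading frames, whereas Ano1 and Ano6 shared 38.9%, Ano1 and Ano8 23.2%, and Ano1 and Ano10 22.8%. No run of 50 identical bases was found between the transcripts of any pair of members, so the members' reads were separable by sequence at that length.

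The sequences before the annotated starts of Ano1, Ano5 and Ano10 are shown to set a gene that was high in KPH2 tumours beside one that also rose and one that did not differ. They were taken from RefSeq on GRCm38.p6, which gave a start for 8 of the 10 members, and run 5′ to 3′ along the gene, ending 1 base before the start or, for Ano1, before the first annotated exon. Capitals mark the letters searched on both strands, ACGTG and GCGTG (the core that hypoxia factors bind), CACGTG and CAGCTG (E boxes, the first of which contains ACGTG), and GGGCGG (the GC box, added after the sequences had been seen). The Ano1 sequence is chr7:144738593-144738823 on the minus strand, 231 bases long, the Ano5 sequence is chr7:51510779-51511028 on the plus strand, and the Ano10 sequence is chr9:122294424-122294673 on the minus strand. The Ano1 and Ano5 windows lie inside the span of their genes, which have other starts further upstream.
Ano1: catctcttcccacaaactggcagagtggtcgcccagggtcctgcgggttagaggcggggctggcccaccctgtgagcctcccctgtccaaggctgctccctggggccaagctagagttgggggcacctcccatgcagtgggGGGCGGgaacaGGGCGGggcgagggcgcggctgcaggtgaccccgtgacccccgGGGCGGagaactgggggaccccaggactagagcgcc
Ano5: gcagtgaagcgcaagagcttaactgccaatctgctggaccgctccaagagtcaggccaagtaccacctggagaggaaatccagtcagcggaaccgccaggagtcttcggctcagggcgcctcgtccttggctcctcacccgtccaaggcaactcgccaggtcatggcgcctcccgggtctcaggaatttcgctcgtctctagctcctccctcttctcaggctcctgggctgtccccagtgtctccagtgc
Ano10: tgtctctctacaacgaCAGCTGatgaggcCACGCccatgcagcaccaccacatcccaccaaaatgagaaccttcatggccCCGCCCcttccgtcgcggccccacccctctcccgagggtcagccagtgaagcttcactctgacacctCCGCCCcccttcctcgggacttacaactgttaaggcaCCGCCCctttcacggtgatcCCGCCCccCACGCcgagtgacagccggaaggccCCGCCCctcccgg

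The 250 bases before the Ano1 start held GGGCGG at 109, 98, 55 and 17 bases before it, the last in the exon bases that are not printed, and none of the other letters searched. The Ano5 window held none of them. Ano10 held GCGTG at 221 and 38 bases before its start, on the opposite strand, with CAGCTG and 5 copies of GGGCGG. Among 32851 annotated starts, 38.6% held ACGTG or GCGTG within 250 bases upstream, 13.0% held CAGCTG, 6.02% held CACGTG and 32.7% held GGGCGG. Bases G and C made up 72.0% of the 250 bases before Ano1, 61.6% before Ano5 and 65.2% before Ano10, against a median of 52.4% over all starts. These matches describe the letters in the windows and say nothing of binding.

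Ano1, the calcium-activated chloride channel, was counted 147, 80, 89 and 281 times in KP 5, 6, 7 and 8 and 1424, 848 and 852 times in KPH2 2, 3 and 4. Scaled to library size these counts were 10.9, 11.3, 13.2 and 21.2 CPM in the KP tumours and 128, 84.7 and 95.9 CPM in the KPH2 tumours. KPH2 1, with 163 counts, stood at 13.0 CPM. Every one of KPH2 2 to 4 was far above the highest KP tumour, while KPH2 1 lay among the KP tumours. The mean of the KP tumours was 14.1 ± 4.79 CPM (SD, n = 4), that of KPH2 2 to 4 was 103 ± 22.5 CPM (SD, n = 3), 7.28 times as high, and the fitted log2 fold change was 2.85 (standard error 0.27). With KPH2 1 included the groups overlapped and the fitted value was 2.50 (standard error 0.59).

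**Figure D1:**
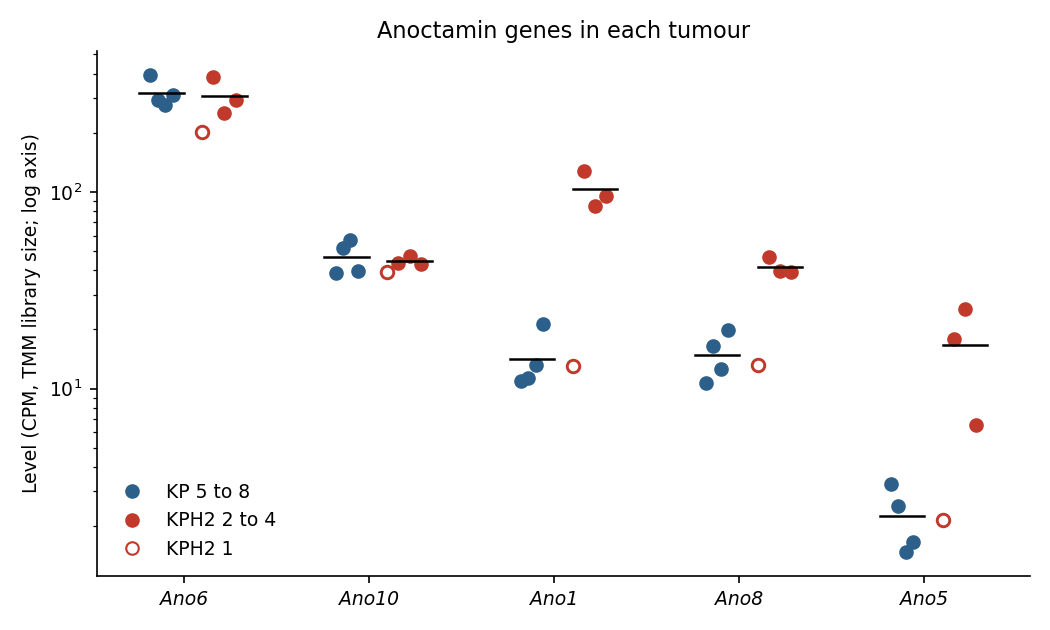
Level of the 5 tested anoctamin genes (CPM, log axis) in KP tumours (blue), KPH2 2 to 4 (filled red) and KPH2 1 (open red), with 1 point per tumour and a black line at the mean of KP 5 to 8 or KPH2 2 to 4. Ano1, Ano5 and Ano8 of KPH2 2 to 4 sit above all KP tumours, Ano6 and Ano10 overlap, and KPH2 1 is near or below the KP tumours for each gene.

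Of the 9 paralogs, 4 were tested, and 2 of them, Ano5 and Ano8, rose in KPH2 2 to 4 (edgeR quasi-likelihood test, adjusted p under 0.05 over all genes). Over all 14867 genes tested, 1.96% passed that threshold, 1.24% as higher and 0.72% as lower in KPH2 tumours. Both genes had at least 10 counts in each KP tumour, so they did not enter the test through the KPH2 tumours alone. Ano6 and Ano10 did not pass in either direction.

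Ano8, the tether between endoplasmic reticulum and plasma membrane, had 145, 117, 85 and 264 counts in KP 5 to 8, which is 10.7, 16.5, 12.6 and 19.9 CPM. KPH2 2, 3 and 4 had 517, 397 and 347 counts, or 46.5, 39.7 and 39.0 CPM, and KPH2 1 had 166 counts, or 13.2 CPM. All 3 lay above every KP tumour, which held for 8.73% of all genes tested, and KPH2 1 again lay inside the KP range. The mean went from 14.9 ± 4.09 CPM (SD, n = 4) to 41.7 ± 4.11 CPM (SD, n = 3), a ratio of 2.79, and the log2 fold change was 1.48 (standard error 0.23, 95% interval 0.96 to 2.0, edgeR adjusted p = 0.0236). Over all 8 tumours it was 1.21 (standard error 0.37, edgeR adjusted p = 0.218), in a fit where 0.00675% of genes passed, that is 1 of 14805 by edgeR (2172 at an unadjusted p under 0.05). When single tumours were omitted, the edgeR adjusted p of Ano8 ran from 0.0278 to 0.0888 and was above 0.05 without KP 6 (0.0526), KP 7 (0.0632), KPH2 2 (0.0888) or KPH2 4 (0.0524).

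Ano8 shares part of an exon with Dda1 on the opposite strand, and whether the counting used strand was not given in the sources used here. Dda1, a subunit of a ubiquitin ligase, was at 19.9 to 37.9 CPM in KP tumours, 30.9 to 38.8 CPM in KPH2 2 to 4 and 35.1 CPM in KPH2 1, with a log2 fold change of 0.28 (standard error 0.22, edgeR adjusted p = 0.572). The part of Dda1 reads in the Ano8 counts was not tested.

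Ano5, the skeletal muscle and bone member, was low in KP tumours, with 44, 18, 10 and 22 counts in KP 5 to 8, or 3.26, 2.54, 1.48 and 1.66 CPM. KPH2 2, 3 and 4 had 198, 255 and 58 counts, or 17.8, 25.5 and 6.53 CPM, and KPH2 1 had 27 counts, or 2.15 CPM. KPH2 2 to 4 did not overlap with the KP group but differed widely among themselves, from 6.53 CPM in KPH2 4 to 25.5 CPM in KPH2 3. Their mean was 16.6 ± 9.53 CPM (SD, n = 3), against 2.24 ± 0.827 CPM (SD, n = 4) for KP tumours. The fit gave a log2 fold change of 2.87 (standard error 0.48, 95% interval 1.77 to 3.97, edgeR adjusted p = 0.0306), and 2.52 over all 8 tumours (standard error 0.70, edgeR adjusted p = 0.184). It kept an edgeR adjusted p under 0.05 without KP 5 (0.0393) or KPH2 4 (0.0173), and had 0.0743 without KP 6, 0.0782 without KP 7, 0.0751 without KP 8, 0.0957 without KPH2 2 and 0.0679 without KPH2 3.

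The order of KPH2 2 to 4 by Ano5 was also their order by skeletal muscle markers. The muscle score, the mean log2 CPM of 25 markers such as Ckm and Acta1, was 7.69 in KPH2 3, 7.03 in KPH2 2 and 5.37 in KPH2 4, against 5.15, 4.05, 4.03 and 5.07 in KP 5, 6, 7 and 8 and 3.97 in KPH2 1. In a fit over the 7 tumours that also held this score, Ano5 had a log2 fold change of 1.19 (standard error 0.57, edgeR adjusted p = 0.715), less than in the fit without it. That of Ano8 was 1.39 (standard error 0.40, edgeR adjusted p = 0.442) and that of Ano1 was 2.67 (standard error 0.44), both within 1 standard error of their values without the covariate. Only 3 of 14867 genes passed in the edgeR fit with the covariate, which takes up 1 more degree of freedom (1142 at an unadjusted p under 0.05). Skeletal muscle and group moved together in these tumours. The muscle content and the Epas1 deletion therefore cannot be told apart for Ano5, Ano8 or Ano1.

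**Figure D2:**
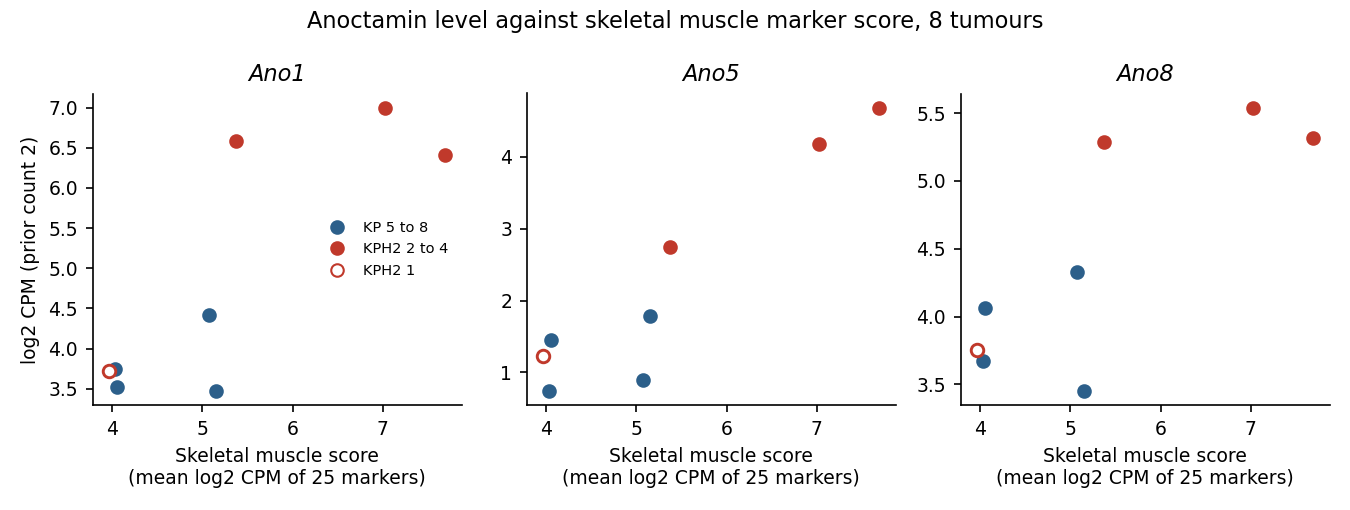
Log2 CPM (prior count 2) of Ano1, Ano5 and Ano8 against the skeletal muscle score (mean log2 CPM of 25 markers), with 1 point per tumour, KP blue, KPH2 2 to 4 filled red and KPH2 1 open red. Within KPH2 2 to 4, Ano5 is ordered by the score (5.37, 7.03 and 7.69), and Ano1 and Ano8 are highest at 7.03, with Ano1 lowest at 7.69 and Ano8 lowest at 5.37.

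Ano6, the phospholipid scramblase, was the most counted member, with 5322, 2071, 1878 and 4128 counts in KP 5 to 8 and 4259, 2521 and 2591 in KPH2 2 to 4. These were 395, 292, 278 and 311 CPM in KP tumours, 383, 252 and 292 CPM in KPH2 2, 3 and 4, and 201 CPM (2524 counts) in KPH2 1. The ranges of KP tumours (278 to 395 CPM) and of KPH2 2 to 4 (252 to 383 CPM) overlapped, and KPH2 1 was the lowest of all 8 tumours. The means were 319 ± 52.2 CPM (SD, n = 4) and 309 ± 67.1 CPM (SD, n = 3), with a log2 fold change of −0.05 (standard error 0.20, 95% interval −0.49 to 0.40, edgeR adjusted p = 0.928). That interval leaves room for ratios from 0.71 to 1.32. Exons of 2 RNA genes on the opposite strand, A130051J06Rik and Gm49172, overlap Ano6.

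Ano10, a member of the endoplasmic reticulum that is mutated in a recessive ataxia, was at 38.9, 52.0, 57.1 and 39.6 CPM in KP 5 to 8 (525, 368, 386 and 526 counts). KPH2 2, 3 and 4 had 43.3, 47.1 and 43.0 CPM (482, 471 and 382 counts), and KPH2 1 had 39.1 CPM (490 counts). All 4 KPH2 tumours fell inside the KP range. The means were 46.9 ± 9.07 CPM (SD, n = 4) and 44.4 ± 2.26 CPM (SD, n = 3), the log2 fold change was −0.08 (standard error 0.18, 95% interval −0.48 to 0.33, edgeR adjusted p = 0.872), and the interval corresponds to ratios from 0.715 to 1.26.

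**Figure D3:**
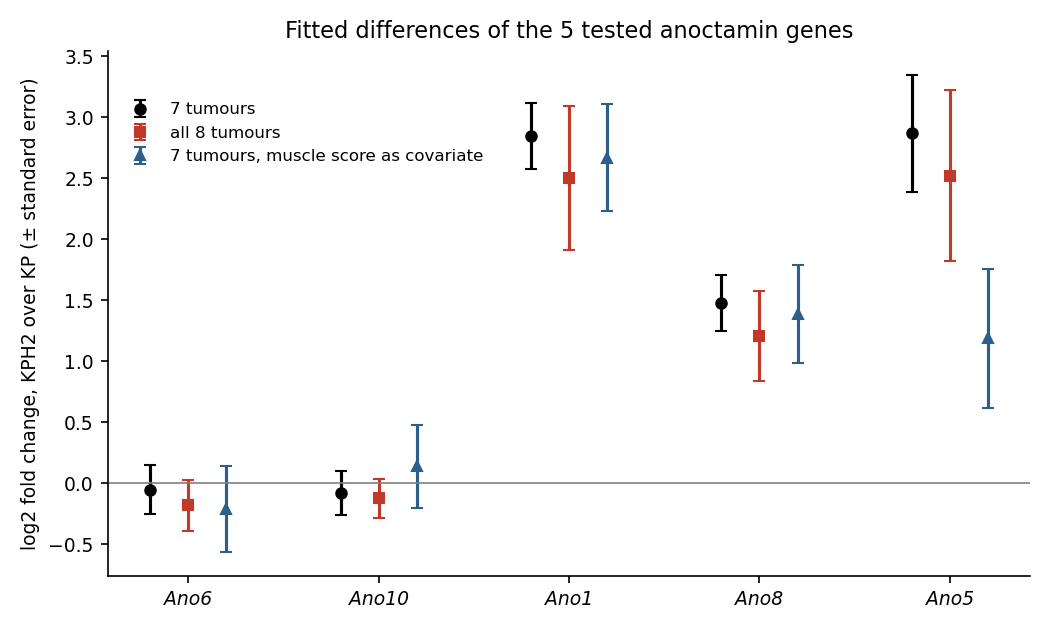
Fitted log2 fold change of KPH2 over KP for the 5 tested members, with standard error bars, over 7 tumours (black), over all 8 (red) and over 7 with the skeletal muscle score as a covariate (blue). Ano6 and Ano10 lie near 0 in all 3 fits, Ano1 between 2.50 and 2.85, Ano8 between 1.21 and 1.48, and Ano5 drops from 2.87 to 1.19 with the covariate.

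The remaining members were close to silent. Ano2, the channel of olfactory and retinal neurons, had 6 counts over the 8 tumours together, Ano3, a brain member, had 5, and Ano9, known from epithelium, had 3. Ano4, the closest relative of Ano3 with 64.0% identity, had 50 counts, of which 37 came from KP 8 and 1 to 3 from each other tumour. Ano7, first known from prostate, had 42 counts, of which 15 came from KPH2 1, and 0 to 9 in each other tumour. These 5 genes were too low for the test, so a difference between the groups was not tested for them.

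Levels were put in order per kilobase of exon, where they can be compared between genes. In KP tumours Ano6 was first with a mean of 63.9 CPM per kilobase, followed by Ano10 with 16.3, Ano8 with 3.95 and Ano1 with 3.07, and this order was the same in each of the 4 tumours and in KPH2 1. Ano8 (2.84 to 5.25 CPM per kilobase) and Ano1 (2.37 to 4.60) nevertheless overlapped in range, and by coding length Ano1 came before Ano8 (4.63 against 4.51 CPM per kilobase). Ano5 came next with 0.286 CPM per kilobase, except in KP 8, where Ano4 was above it, and Ano4 and Ano7 could not be put in order, since Ano4 (mean 0.191) came mostly from KP 8 and lay below Ano7 (mean 0.0979) in KP 5 and KP 7. In KPH2 2, 3 and 4 Ano1 came directly after Ano6 in each tumour, at 18.4 to 27.8 CPM per kilobase against 14.9 to 16.3 for Ano10, with Ano8 at a mean of 11.0, Ano6 at 61.9 and Ano5 at 2.12.

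The counts of the family can also be compared within a tumour, where the scaling of libraries plays no part. Ano1 made up 2.37%, 3.01%, 3.63% and 5.34% of the anoctamin counts in KP 5, 6, 7 and 8, and 4.81% in KPH2 1. It made up 20.7%, 18.8% and 20.1% in KPH2 2, 3 and 4. The exact Clopper-Pearson 95% intervals were, for example, 2.01% to 2.78% in KP 5 and 19.7% to 21.7% in KPH2 2. They treat each read as a separate count within a library, leave out the spread between tumours and are no test between the groups. The reads carried no molecular identifiers, so copied reads could be counted as separate and the intervals may be too narrow. As a percentage of Ano6, Ano1 stood at 2.76% to 6.81% in KP tumours, 6.46% in KPH2 1, and 33.4%, 33.6% and 32.9% in KPH2 2, 3 and 4. These last 3 ratios were almost equal although the Ano6 level itself ran from 252 to 383 CPM in those tumours.

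Ano1 can be set against the other members in the same way. The ratio of Ano1 to Ano8 was 0.684 to 1.06 in KP tumours and 0.982 in KPH2 1. It was 2.14 to 2.75 in KPH2 2 to 4. Ano1 was chosen by its difference between the groups, so ratios that hold it are a description. The ratio of Ano1 to Ano5 ran from 3.34 to 12.8 in KP tumours and from 3.33 to 14.7 in KPH2 2 to 4, with 6.04 in KPH2 1. The ratio of Ano8 to Ano10 was 0.22 to 0.502 in KP tumours, 0.339 in KPH2 1 and 0.843 to 1.07 in KPH2 2 to 4. All anoctamin counts without Ano1 came to 350 to 449 CPM in KP tumours and 365 to 491 CPM in KPH2 2 to 4, overlapping, and to 257 CPM in KPH2 1.

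**Figure D4:**
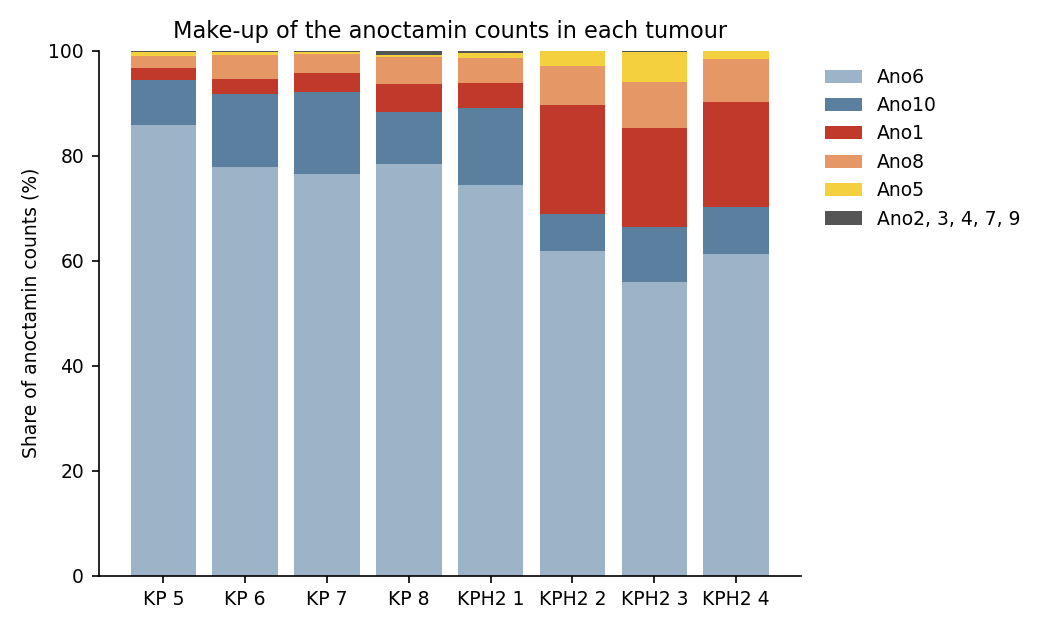
Share of all anoctamin counts (%, bars stacked to 100) taken by each member in each of the 8 tumours. The Ano1 band is 2.37% to 5.34% in KP tumours, 4.81% in KPH2 1 and 18.8% to 20.7% in KPH2 2 to 4, while Ano6 takes the most in every tumour.

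Across the 8 tumours, the gene whose log2 CPM was most like that of Ano1 among the 14804 other genes tested was its own paralog Ano8, with a Pearson correlation of 0.976. The next genes were Itgax (0.971), an integrin of dendritic cells and macrophages, Gm10305 (0.970), Prrg4 (0.969) and Celf4 (0.969), an RNA-binding protein of neurons. In all 5 genes KPH2 2 to 4 were above every other tumour, and KPH2 1 lay inside the KP range in 4 of them and just below it in Gm10305 (1.44 CPM against 1.48 to 1.88 CPM in KP tumours). The 5 genes were picked by these same values and Ano1 by its difference between the groups. The shared pattern thus follows from the choice and is no support. KPH2 2 to 4 lay above every KP tumour in 8.73% of all genes tested. The values are a description over 8 points. Ano8 ranked 20th by Pearson correlation over the 7 tumours without KPH2 1 and 96th by Spearman correlation over 8. Ano5 ranked 244th with 0.86, Ano6 5622nd with 0.16 and Ano10 8071st with −0.09.

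None of the genes beside Ano1 on chromosome 7 passed the test. Within 500 kb of Ano1, 12 other genes had a row, 8 were tested, and 0 passed by edgeR at an adjusted p of 0.05 (2 at an unadjusted p under 0.05, Oraov1 and Tpcn2, with 2 past DESeq2 and 0 past limma on the rlog values). Over all genes tested, 17.8% (2640 genes) had an unadjusted p under 0.05, and 7.65% passed DESeq2 and 2.17% limma, which is the background for these counts here and in the lists of genes. Their median log2 fold change was −0.02, beside −0.02 over all genes tested. Fadd, an adaptor of death receptors 6.1 kb away, had −0.15 (standard error 0.30), Ppfia1 0.01 (standard error 0.17), Cttn, which encodes the actin regulator cortactin, 0.05 (standard error 0.24) and Shank2 −0.05 (standard error 0.65). On the other side the small RNA gene Bc1, which has repeat copies elsewhere in the genome and is uncertain, had 0.11 (standard error 0.45) and Ccnd1, which encodes cyclin D1, had 0.20 (standard error 0.36). The lowest values were those of Oraov1 (−0.70, standard error 0.19, edgeR adjusted p = 0.102) and of Tpcn2, a channel of lysosomes (−0.65, standard error 0.18, edgeR adjusted p = 0.11). Fgf3, Fgf4, Fgf15 and 1810010D01Rik had 0 to 10 counts over the 8 tumours.

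**Figure D5:**
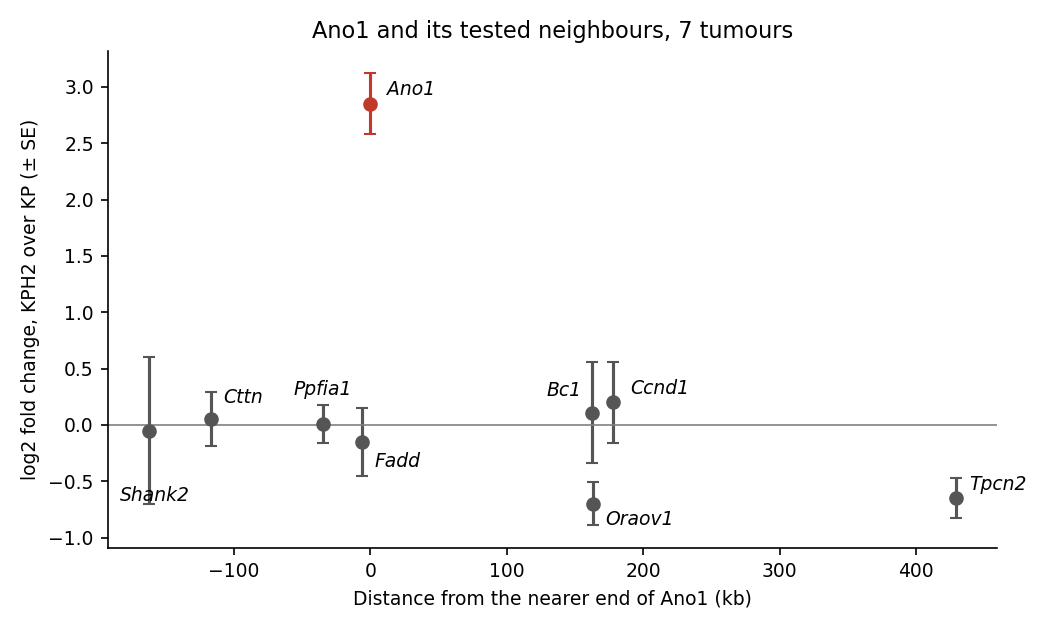
Fitted log2 fold change of KPH2 over KP (with standard error bars, 7 tumours) for Ano1 (red) and its 8 tested neighbours (grey) against the distance in kb from the nearer end of Ano1. Ano1 stands at 2.85 while the neighbours lie between −0.70 and 0.20.

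Genes that work beside the anoctamins were looked at by lists. None of 22 tested genes of other chloride channels passed (median log2 fold change 0.15), the smallest p values being those of Ttyh1 (−1.58, edgeR adjusted p = 0.14) and Clcn5 (0.63, edgeR adjusted p = 0.142). None of 6 tested structural relatives (TMC and TMEM63 genes, median 0.22) passed, with Tmc3 at −1.91 (edgeR adjusted p = 0.135) and Tmc6 at 0.70 (edgeR adjusted p = 0.16). None of 9 other scramblases and flippases passed (median 0.11), with Plscr1 at 0.61 (edgeR adjusted p = 0.318) and Tmem30a, a subunit of flippases, at −0.37 (edgeR adjusted p = 0.33). At an unadjusted p under 0.05 the counts were 4, 3 and 0 in these lists, and DESeq2 called 1, 1 and 0, with 0 by limma in each.

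Transporters that load cells with chloride, and so set the direction of current through Ano1, did not pass either. Of 7 genes 0 passed by edgeR (median 0.09), and the smallest adjusted p was that of Slc12a2, the sodium-potassium-chloride cotransporter, with 127 to 140 CPM in KP tumours and 76.4 to 103 CPM in KPH2 2 to 4 (log2 fold change −0.57, edgeR adjusted p = 0.0877), beside Slc12a4 (0.32, edgeR adjusted p = 0.457). Of 16 genes for calcium release, calcium entry, calmodulin, CaMKII and Egfr, 0 passed by edgeR (median 0.05), with Itpr1, a calcium release channel, at −0.90 (edgeR adjusted p = 0.113) and Camk2g at 0.55 (edgeR adjusted p = 0.117). At an unadjusted p under 0.05 the counts were 1 and 5, and DESeq2 called 1 and 2 of these genes, with 0 by limma in each list.

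Markers of cell types known for Ano1 were set beside it. Interstitial cells of Cajal, the pacemaker cells of the gut, had 4 of 6 markers tested and 0 past edgeR (1 at an unadjusted p under 0.05, 1 by DESeq2 and 0 by limma), summing to 155 to 378 CPM in KP tumours, 139 to 293 CPM in KPH2 2 to 4 and 594 CPM in KPH2 1. Their receptor Kit was at 21.9 to 48.9 CPM in KP tumours and 8.29 to 21.6 CPM in KPH2 2 to 4 (log2 fold change −1.29, edgeR adjusted p = 0.133), and Etv1 had 0.36 (edgeR adjusted p = 0.32). Smooth muscle and pericyte markers had a median of −0.44 over 10 genes, 9 of them negative, and 1 passed as lower, Cnn1, the smooth muscle calponin (−3.69, edgeR adjusted p = 0.0491), which entered the test only through the KP tumours, with sums of 414 to 1040 CPM in KP tumours, 326 to 902 CPM in KPH2 2 to 4 and 207 CPM in KPH2 1. Thbs4, singled out after its values were seen, contributed 44.3 to 510 CPM to the first sum, and the part of either cell type in the Ano1 level was not tested.

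Epithelial markers were mostly too low to test. Of 9 markers 3 were tested and 2 passed as higher, the paired keratins Krt8 and Krt18 of simple epithelium, while Krt5 and Krt14 of stratified epithelium had 0 counts in all 8 tumours and Epcam had 57 in all. Krt8 was at 0.706 to 2.0 CPM in KP tumours, at 262, 6.89 and 282 CPM in KPH2 2, 3 and 4, and at 1.44 CPM in KPH2 1 (log2 fold change 7.27, edgeR adjusted p = 0.0299), and it passed the filter on low counts only through the KPH2 tumours, so its call is no support. Krt18 was at 0.444 to 4.52 CPM in KP tumours, at 201, 40.8 and 228 CPM in KPH2 2, 3 and 4, and at 56.1 CPM in KPH2 1 (log2 fold change 5.73, edgeR adjusted p = 0.0183). Both keratins and Ano1 thus lay above every KP tumour in KPH2 2 to 4, which held for 8.73% of all genes tested. In KPH2 1 only Krt18 did. Ano1 was chosen by its difference between the groups, so its shared pattern with the keratins is a description and no support. Cdh1, the other tested marker, did not pass (log2 fold change 2.37, edgeR adjusted p = 0.13). It exceeded every KP tumour in KPH2 2 and KPH2 4, but its 1.5 CPM in KPH2 3 fell within the KP range of 0.445 to 2.22 CPM. The sum of the 9 markers was 3.85 to 7.04 CPM in KP tumours, 50.1 to 522 CPM in KPH2 2 to 4 and 58.3 CPM in KPH2 1, and the part of such cells in the Ano1 level was not tested.

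Markers of muscle and bone, tissues known for Ano5, were compared in the same way. All 25 skeletal muscle markers had positive log2 fold changes, with a median of 2.19 (1.84 over all 8 tumours), and 2 of them passed, the muscle enolase Eno3 (2.98, edgeR adjusted p = 0.00922) and Neb, which encodes nebulin (2.23, edgeR adjusted p = 0.043). At an unadjusted p under 0.05 there were 24, DESeq2 called 20 and limma 1. Bone markers, of which 3 of 8 were tested, summed to 54.2 to 69.4 CPM in KP tumours, 89.6 to 139 CPM in KPH2 2 to 4 and 75.9 CPM in KPH2 1, with a median of 1.46, and 1 passed as higher, Dmp1, a bone matrix protein (4.57, edgeR adjusted p = 0.00514), which also entered the test only through the KPH2 tumours, while Sost had 0 counts in all tumours. Of the 3 tested bone markers, 3 had an unadjusted p under 0.05, and DESeq2 called 2 and limma 1. Their part in the Ano5 level was not tested beyond the fit with the muscle score.

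The other marker lists were as follows. Schwann cell and nerve markers (7 tested, median 0.56) summed to 29.2 to 52.1 CPM in KP tumours, 62.8 to 74.6 CPM in KPH2 2 to 4 and 30.2 CPM in KPH2 1. Endothelial markers (8 tested, median −0.56) had 0 past edgeR (2 at an unadjusted p under 0.05, 2 by DESeq2, 0 by limma), led by Kdr (−0.72, edgeR adjusted p = 0.0818) and Pecam1 (−0.78, edgeR adjusted p = 0.119). Macrophage markers (5 tested, all negative, median −0.57) had 0 past edgeR (3 at an unadjusted p under 0.05, 1 by DESeq2, 0 by limma), led by Mrc1 (−1.53, edgeR adjusted p = 0.0951) and Cd163 (−1.13, edgeR adjusted p = 0.183). Mesenchymal markers (7 tested, median −0.54) had 1 that fell, the growth factor receptor Pdgfra (−2.02, edgeR adjusted p = 0.0183).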

How the data were processed

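RNA was extracted from fixed, paraffin-embedded tumours, made into stranded libraries after removal of ribosomal RNA, and sequenced. Per the submitters' processing notes and the study's methods, the tools were CASAVA 1.8.2, STAR 2.4, HTSeq 0.6.1 and DESeq2 1.6 with GRCm38. The authors deposited raw counts per gene, without normalization, and log2 values from a regularized log transformation (rlog) which divides each library by a size factor. Whether counting used strand is not given in the sources used here. Total counts per tumour were 6463221 to 13155510, and the biological coefficient of variation was 0.313 over 7 tumours and 0.347 over 8, which sets the precision.

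Tests on the counts were run with edgeR 4.0.16 under R 4.3.3 (TMM normalization, filter of edgeR with a minimum count of 10 and minimum total of 15, robust quasi-likelihood test). Adjusted p-values were Benjamini-Hochberg values across the whole table, with a threshold of 0.05. CPM used TMM library sizes over 8 tumours, and log2 CPM a prior count of 2. Intervals of fold changes are 95% intervals from the moderated spread. Exon lengths came from GENCODE annotation of GRCm38, positions and upstream sequences from RefSeq (GRCm38.p6), and identities from MAFFT 7.526 alignments of the longest reading frames. Alternatives were all 8 tumours, other normalizations and filters, DESeq2 1.42.0, limma 3.58.1 on the deposited log2 values, the skeletal muscle score as a covariate, and leaving out each tumour. The DESeq2 test over all 8 tumours was chosen after seeing the data. In simulated data for the 7-tumour comparison (14867 genes), 159 of 200 genes changed by 2 on the log2 scale were recovered and 5 unchanged genes were called.

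The members and lists were chosen with earlier results of these data known. The genes named are all members, all counted neighbours within 500 kb of Ano1, the 5 genes most correlated with Ano1, and from each list those that passed or otherwise the 2 with the smallest p. A gene that this rule names, and a further allele shared by both groups, are not reported here. KP and KPH2 tumours have no replicate number in common, so no pairing was made. The labels give 1 library per tumour, and p-values measure the spread between these tumours. The closest libraries, KP 6 and KP 8, differed by more than sampling noise (chi-square 22.7 per degree of freedom).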

Additional observations from a re-analysis of the deposited data

Results flagged for a closer look

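Ano8 in KPH2 1 stood apart from the rest of its group, with 3.75 log2 CPM against 5.29 in the nearest other KPH2 tumour. Its gap to that tumour was 0.861 of the range of the group, above the 95% limit of Dixon's test for 4 samples. This was 1 of 10 groups of tumours examined (5 members in KP and in KPH2), and chance flags about 1 group in 20. Ano1 and Ano5 of KPH2 1 were also the lowest of the KPH2 tumours but did not pass the same test. Ano1 was at 3.72 log2 CPM against 6.41 in the nearest other KPH2 tumour, and Ano5 at 1.23 against 2.75. KPH2 1 is the tumour already shown apart and taken to be the study's technical outlier.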

How the results depend on the processing

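Ano1 was higher in KPH2 tumours under all 16 alternatives, with log2 fold changes of 2.67 to 3.12 when each tumour was left out and 1.83 with limma on the rlog values. By coding length Ano1 moved from place 4 to place 3 among the members in KP tumours. Of the 5 genes most like Ano1, 0 stayed among the 5 by Spearman correlation over 8 tumours and 0 by Pearson correlation over 7.

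Over all genes edgeR called 292 genes over the 7 tumours, 1 over all 8 tumours and 3 with the muscle score, and DESeq2 called 1175 over 7 and 648 over 8. Leaving out each tumour gave 55 (without KPH2 2) to 349 genes (without KP 5). The number of paralogs called was 2 over the 7 tumours, 0 over all 8 by edgeR, 0 with the muscle score, and 0 to 2 when each tumour was left out. It was 0 without KP 6, KP 7 or KPH2 2 and 1 without KP 8, KPH2 3 or KPH2 4. DESeq2 called both over 8 tumours (Ano5 adjusted p = 0.00651, Ano8 adjusted p = 0.0498). Over the 16 alternatives the adjusted p ran from 1.09e-06 to 0.715 for Ano5, under 0.05 in 9, and from 5.86e-06 to 0.442 for Ano8, under 0.05 in 10. Causes of these shifts were not tested.

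Ano6 ran from −0.23 to 0.08 when each tumour was left out, changing sign without KP 5 or KPH2 3. Ano10 ran from −0.15 to 0.03, changing sign without KP 7, and stood at 0.14 with the muscle score. Neither passed the threshold in any alternative. Counts of 10 to 44 limit the precision of Ano5 in KP tumours, and Ano2, Ano3, Ano4, Ano7 and Ano9 were too low to compare.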
